A study of Mus musculus with 15 samples.

Results

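UCSF033_000357 and UCSF033_000358 are 2 of the 2500 probes of a custom Agilent microRNA array, with consecutive numbers, that were read in mouse CD4 T cells during activation, rest and restimulation. They were chosen by their measured drop from 65 h of stimulation to rest at day 7. No table used here pairs probe numbers with microRNA names, so they are described by number and no sequence is given. Whether both read the same microRNA is not known from these files.

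MicroRNAs are short RNAs that are cut from hairpin precursors and loaded into Argonaute proteins, where they pair with messenger RNAs and repress them. Stimulation of a T cell through its antigen receptor, the CD3 complex, with costimulation through CD28 drives it from quiescence into growth and division, and the set of mature microRNAs in the cell changes along the way. IL-2 is a growth factor that keeps activated T cells alive once stimulation has stopped.

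Cells came from spleen and lymph nodes of C57/B6 mice aged 6 to 8 weeks and were purified with beads coated against CD4. The labels name no further sort for naive cells, and CD4 T cell markers were not checked because the probes carry no names here. Untreated (naive) cells gave 2 arrays. Cells on plates coated with antibodies against CD3 and CD28 were taken at 6, 12, 24, 42 and 65 h, with 2 arrays per time. Cells moved after 65 h into medium with IL-2 and rested until day 7 gave 1 array, and such rested cells put back on the antibodies for 18 h gave 2 arrays. All groups share strain, age, tissue and bead purification. Whether 2 arrays of a group hold RNA of different mice or cultures is not in the labels, and p-values thus reflect array-to-array spread alone, which may be technical. In RNA of a whole culture, fewer cells with a microRNA and less of it per cell cannot be told apart.

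The 15 arrays lay on 2 slides, each with 1 array of every group apart from day 7, which was on slide 1 only. On 14 arrays 640 to 950 probes were detected. The first 42 h array, on slide 2, stood apart, with 2146 probes detected and the non-uniform mark on 49.6% of spots. Each test below is therefore given with all 15 arrays and without that array. All tests used limma across every tested probe, with Benjamini-Hochberg adjustment.

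Both probes were measured well above background on every array. UCSF033_000357 has 6 spots on an array and UCSF033_000358 has 7, and 90 of 90 and 105 of 105 spots over the 15 arrays were well above background, with 0 saturated. Outside the first 42 h array, the coefficient of variation between the spots of a probe lay between 2.10% and 10.1% for UCSF033_000357 and between 1.62% and 6.14% for UCSF033_000358. On the first 42 h array it was 34.1% and 43.1%. With the first 42 h array left out, the background-subtracted signal, averaged over the spots of a probe, was compared between arrays. For UCSF033_000357 it ran from 44.3 on the day 7 array to 432 on the first 65 h array. For UCSF033_000358 it ran from 33.0 to 505 on the same arrays.

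Levels are given as a percentage of the 75th percentile of each array, taken over the 558 probes detected on all arrays. UCSF033_000357 stood at 6.42% and 5.09% on the naive arrays, 8.93% and 7.77% at 6 h, 8.25% and 12.8% at 12 h, 21.6% and 20.2% at 24 h, 21.6% and 32.1% at 42 h, and 32.7% and 32.0% at 65 h. The day 7 array had 5.11%, and the restimulated arrays had 7.87% and 12.8%. The level of this probe was therefore high on every array from 24 h to 65 h, and the day 7 array lay between the naive arrays.

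UCSF033_000358 stood at 5.18% and 6.01% on the naive arrays, 6.90% and 9.61% at 6 h, 5.80% and 14.7% at 12 h, 17.4% and 22.7% at 24 h, 19.0% and 26.7% at 42 h, and 38.2% and 24.5% at 65 h. The day 7 array had 3.80%, and the restimulated arrays had 9.80% and 10.3%. All arrays from 24 h to 65 h lay above all others for this probe too, and its day 7 array was below every other array.

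Ordered by mean level, both probes ran from 65 h through 42 h and 24 h, then 12 h and restimulated cells, then 6 h, naive cells and day 7. UCSF033_000357 had 12 h above restimulated cells by 0.04 log2, and UCSF033_000358 had restimulated cells above 12 h by 0.12 log2. Arrays of neighbouring groups overlapped at 65 h and 42 h and at 42 h and 24 h for both probes. The overlap of 42 h and 24 h came from the first 42 h array alone. The other 42 h array lay above both 24 h arrays for both probes. With levels rescaled without the first 42 h array, the overlap of 65 h and 42 h also ended for UCSF033_000357. Arrays also overlapped among 12 h, 6 h and restimulated cells, except that for UCSF033_000358 both restimulated arrays lay above both 6 h arrays. The gap below 24 h was the widest in the order, 1.02 log2 for UCSF033_000357 and 0.99 log2 for UCSF033_000358, and no array of the lower groups reached a 24 h array. Both 6 h arrays lay above both naive arrays, a difference that did not pass the test below. For this and the other separations of arrays reported here, the share of all probes that separate likewise is not given. They are therefore descriptions.

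The drop by which the probes were chosen is given as a description, with no test. Day 7 minus 65 h was -2.66 log2 for UCSF033_000357, a 6.34-fold lower level, and -3.01 log2 for UCSF033_000358, an 8.05-fold lower level, with 1 day 7 array against 2 arrays. These were the 4th and the 1st lowest of 911 probes in that comparison, in which the median probe lay at -0.03 log2. A low rank was built in by the choice, and the ranks use the 65 h arrays of both slides. The day 7 array and the second 65 h array shared slide 1, where the difference was -2.65 log2 for UCSF033_000357 and -2.69 log2 for UCSF033_000358, or 6.27-fold and 6.45-fold lower. The 65 h levels of UCSF033_000358 were 38.2% on slide 2 and 24.5% on slide 1. In the authors' deposited value table, the slide 1 log2 differences were -2.12 and -1.89.

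With day 7 set against naive cells, the probes were close to or below where they had started. The log2 difference was -0.16 for UCSF033_000357 and -0.55 for UCSF033_000358, and on slide 1 alone -0.33 and -0.44. The day 7 array is 1 array and the comparison is a description. Without any scaling it was -1.57 and -1.96, with signals of 44.3 and 33.0 on the day 7 array against 121 and 97.7 on the naive array of slide 1. With normexp background correction, which adds an offset of 50 to every signal, it was 0.42 and 0.27. The median over tested probes was then 0.87 log2, against 0.23 with the scaling used above. The authors' deposited value table gave -0.57 and -0.91. Normexp alone gave positive values, and the side of naive on which day 7 lies is not settled.

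At 6 h and 12 h the probes were higher on average without passing the test. UCSF033_000357 lay 0.54 log2 above naive at 6 h (SE 0.41, limma adjusted p = 1) and 0.85 above at 12 h (SE 0.41, adjusted p = 1). UCSF033_000358 lay 0.55 above at 6 h (SE 0.50, adjusted p = 1) and 0.73 above at 12 h (SE 0.50, adjusted p = 1). Limma called 0% of 911 probes at either time, with 16 at an unadjusted p under 0.05 at 6 h and 44 at 12 h, and neither probe was among those. With the first 42 h array left out it called 0.680% of 882 probes at 6 h and 1.36% at 12 h, and 0 of the 2 probes at each, with UCSF033_000357 at 12 h reaching an unadjusted p of 0.0239 and an adjusted p of 0.237.

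At 12 h the slides differed. Against the naive array of the same slide, the 12 h array of slide 1 was 0.36 log2 higher for UCSF033_000357 and 0.16 higher for UCSF033_000358. The 12 h array of slide 2 was 1.33 and 1.29 higher. Without scaling these changes were -0.56 and -0.76 on slide 1 and 1.20 and 1.16 on slide 2. With scaling, UCSF033_000358 on the 12 h array of slide 1 (5.80%) also lay below the naive array of slide 2 (6.01%). The step from 6 h to 12 h was -0.12 and -0.25 on slide 1 and 0.72 and 0.61 on slide 2. The step from 12 h to 24 h was 1.39 and 1.59 on slide 1 and 0.66 and 0.63 on slide 2. Most of the difference between naive cells and 24 h thus lay after 12 h on slide 1 and before it on slide 2. With 1 array per time and slide, these steps carry no test.

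At 24 h, with 2 arrays in each group, UCSF033_000357 was 3.66-fold above naive cells. The difference was 1.87 log2 (SE 0.41, limma adjusted p = 0.0854). Within slides it was 1.75 and 1.99. UCSF033_000358 was 3.57-fold above, by 1.84 log2 (SE 0.50, adjusted p = 0.146), and within slides by 1.75 and 1.92. Neither passed with all 15 arrays, where 0.220% of probes did, although both had an unadjusted p under 0.05, as had 109 probes. Without the first 42 h array both rose, by 1.89 log2 (SE 0.31, adjusted p = 0.00991) and 1.86 log2 (SE 0.46, adjusted p = 0.0393), where 11.8% of 882 probes were called. Leaving out the second 42 h array in place of the first gave 1.88 log2 (SE 0.31) and 1.84 log2 (SE 0.44). Either removal takes the difference between the 2 arrays at 42 h out of the shared spread, so it is no separate support. Blocking on slide with the first 42 h array left out gave a limma adjusted p of 0.00587 and 0.00725, where 248 of 882 probes were called. With that array left out, UCSF033_000358 did not pass when scaled to the percentile over all probes (adjusted p = 0.132), after quantile normalization (adjusted p = 0.0540) or in the authors' deposited value table (adjusted p = 0.107), while UCSF033_000357 passed in each (0.0379, 0.00647 and 0.00979). In the same order, 70 of 882, 85 of 882 and 82 of 693 probes were called. At 24 h the median over tested probes was 0 log2. Without scaling the differences were 0.80 and 0.77 log2, where that median was -0.80. Neither probe passed unscaled, also with the first 42 h array left out (adjusted p = 0.506 and 0.675).

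At 42 h both probes rose above naive cells. UCSF033_000357 gained 2.20 log2 (SE 0.41; limma, adjusted p = 0.0109), a 4.61-fold difference, and UCSF033_000358 by 2.01 log2 (SE 0.50, adjusted p = 0.0222), a 4.04-fold difference. With all 15 arrays 22.0% of probes were called, and the median over tested probes was 1.17 log2, so both were 1.03 and 0.84 log2 above that shift. Without the first 42 h array they were higher by 2.45 log2 (SE 0.38, adjusted p = 0.00395) and 2.22 log2 (SE 0.56, adjusted p = 0.0224), where 26.6% of 882 probes were called and the median of all probes was 0.30. That value rests on 1 array, assumed to vary like the other groups. On slide 1, which does not hold the outlying array, the differences were 2.32 and 2.37 log2. The call ended when either naive array was left out: without the first, the adjusted p was 0.0559 and 0.125, and without the second 0.0964 and 0.110. Scaled to the percentile over all probes with all 15 arrays, the sign turned, to -0.62 and -0.81 log2, and after quantile normalization to -0.33 and -0.48. The percentile over all probes without the first 42 h array gave 1.78 (adjusted p = 0.0313) and 1.55, which did not pass for UCSF033_000358 (adjusted p = 0.170). Quantile normalization without it gave 2.39 and 2.08 (adjusted p = 0.00275 and 0.0348). Without scaling both calls ended, at 1.17 log2 (adjusted p = 0.569) and 0.98 log2 (adjusted p = 0.706), or 0.40 (adjusted p = 0.768) and 0.17 (adjusted p = 0.953) with that array left out. The value table without that array also ended the call of UCSF033_000358 (1.44, adjusted p = 0.148).

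At 65 h the probes were 5.66-fold and 5.49-fold above naive cells, by 2.50 log2 for UCSF033_000357 and 2.46 log2 for UCSF033_000358. These arrays took part in choosing the probes, so the values are a description. Without scaling the differences were 1.15 and 1.10 log2. The median of all probes lay 0.49 log2 above naive at 65 h. Within slides the differences were 2.32 and 2.25 log2 on slide 1 and 2.68 and 2.67 on slide 2. The step from 24 h to 65 h was 0.57 and 0.49 on slide 1 and 0.69 and 0.75 on slide 2, against 1.75 to 1.99 from naive cells to 24 h. In the authors' deposited value table the mean differences from naive were 1.75 and 1.62 log2, beside 1.78 and 1.76 at 42 h, or 1.66 and 1.44 at 42 h without the column of the first 42 h array.

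Both probes read higher after 18 h of restimulation than on the day 7 array. Given as a description, since the day 7 array chose the probes, UCSF033_000357 was 0.97 log2 higher and UCSF033_000358 1.40 higher than at day 7, and on slide 1 1.32 and 1.43. Both restimulated arrays lay above the day 7 array for both probes.

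Against naive cells, restimulated cells were 0.81 log2 higher for UCSF033_000357 (SE 0.41, limma adjusted p = 0.207) and 0.85 higher for UCSF033_000358 (SE 0.50, adjusted p = 0.279), and neither passed. The 95% intervals ran from -0.11 to 1.73 and from -0.27 to 1.96, so these arrays leave room for no difference as well as for one of that size. Limma called 15.1% of 911 probes in this comparison and 0 of these 2. With the first 42 h array left out it called 41.0% of 882 probes and again 0 of the 2, with an adjusted p of 0.0784 and 0.184, and UCSF033_000357 had an unadjusted p of 0.0363. The median of all probes lay 0.39 log2 above naive, which left the probes 0.42 and 0.46 above it. The authors' deposited value table gave smaller mean differences, 0.05 and 0.07 log2. Without scaling the sign turned, to -0.39 and -0.35.

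The second stimulation was set against the 24 h of the first, although 18 h and 24 h differ and the cells had been stimulated before. Restimulated minus 24 h was -1.06 log2 for UCSF033_000357 (SE 0.41, limma adjusted p = 0.318) and -0.99 for UCSF033_000358 (SE 0.50, adjusted p = 0.520), or 2.09-fold and 1.98-fold lower levels. Neither passed, and 1.10% of 911 probes did. For both probes the restimulated arrays lay below both 24 h arrays, which is a description without the share of all probes that do so. Without the first 42 h array the differences were -1.11 (adjusted p = 0.0619) and -1.04 (adjusted p = 0.222), where 9.52% of 882 probes were called. UCSF033_000357 passed under 4 alternatives, all in the same direction. Its limma adjusted p was 0.0354 with slide as a block and the first 42 h array left out, where 210 of 882 probes were called. In the authors' deposited value table limma gave UCSF033_000357 -1.54 log2 (adjusted p = 0.00227, or 0.00480 without the column of the first 42 h array). There 70 of 719 probes were called, or 64 of 693 without that column. After quantile normalization without the first 42 h array UCSF033_000357 had -1.55 (limma adjusted p = 0.00870), where 79 of 882 probes were called. UCSF033_000358 did not pass in any of these, with adjusted p of 0.0560, 0.131 (0.153 without that column) and 0.118 in the same order.

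The levels of the 2 probes followed each other from array to array. Over the 14 arrays without the first 42 h array their log2 levels correlated at r = 0.953 (Spearman 0.921), as a description, since both are read on the same arrays. Within slide 1 the correlation was 0.998 over 8 arrays, and within slide 2 it was 0.999 over 6 arrays. Both probes were chosen by their drop from 65 h to day 7, and those arrays are among the ones correlated. Part of a high correlation was thus built in. Tested probes with consecutive numbers, this pair included, gave a median of 0.870 over 549 pairs, with quartiles of 0.435 and 0.969. The value over both slides is thus inside the range common for such neighbours.

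The difference between the probes depended on the slide. UCSF033_000357 minus UCSF033_000358 was positive on all 8 arrays of slide 1, from 0.27 to 0.51 log2, with a mean of 0.36 ± 0.08 (SD, n = 8 arrays). On slide 2 it was negative on the 6 arrays other than the first 42 h array, from -0.32 to -0.17, with a mean of -0.24 ± 0.06 (SD, n = 6 arrays). The first 42 h array had 0.19. In the authors' deposited value table it had -0.19, inside the slide 2 range there of -0.31 to -0.16, so its sign depended on the source. For this array the deposited values and the scanner signals thus did not match in the order of the 2 probes. The reason was not tested. The day 7 array, which was on slide 1 only, had 0.43 log2, between the lowest and the highest value of that slide. Differences of day 7 from the mean of both arrays of another group mix time and slide. Those taken within slide 1 do not. Every other group had an array on each slide, so among those groups the slide offset was not tied to a time. It lay mostly with UCSF033_000358, which over 6 groups was 0.53 log2 higher on slide 2 than on slide 1, where UCSF033_000357 differed by -0.08. All 882 tested probes had a median of -0.10, with quartiles of -0.50 and 0.27.

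When each array was set against the naive array of its slide, the offset cancelled and the probes gave nearly the same change in scaled level. Over the 12 such arrays other than the first 42 h array, their changes differed by a median of 0.07 log2 and at most 0.20, the latter on the 12 h array of slide 1. On the 24 h array of slide 1 both changed by 1.75 log2, on the restimulated array of slide 1 both by 0.99, and on the 65 h array of slide 2 by 2.68 and 2.67. On the first 42 h array the changes were 2.08 and 1.66 log2. In the authors' deposited value table some changes lay further apart. They were 1.45 and 1.12 on the 65 h array of slide 1 and 0.39 and 0.09 on the 12 h array of slide 1. Others stayed close, such as 1.13 and 1.14 on the 12 h array of slide 2.

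Other probes with a like pattern were few. The log2 levels of 876 other tested probes were correlated with the mean of the 2 probes over 14 arrays, without the first 42 h array. The 65 h and day 7 arrays, by which the 2 probes were chosen, are among these arrays. The median correlation was 0.08, 3 probes were above 0.9 and 1 was below -0.9. UCSF033_000616 was most like them, at r = 0.919, with 0.886 on slide 1 and 0.974 on slide 2. Its own change was smaller, 1.21 log2 from naive cells to 65 h and -0.79 from 65 h to day 7. UCSF033_000440 followed at r = 0.910, with 2.08 log2 up to 65 h and -1.50 from there to day 7. UCSF033_000491 ran most nearly opposite, at r = -0.918. It was detected on 12 of the 14 arrays, on 1 of the 2 arrays at 65 h and on 0 of 1 at 42 h, so no size is given for its differences. UCSF033_000667 was next, at r = -0.885, with -1.99 log2 from naive cells to 65 h and 1.62 from 65 h to day 7. In the authors' deposited value table, the correlations of these 4 probes were 0.907, 0.890, -0.726 and -0.552, so the opposite pair was less close there.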

How the data were processed

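Total RNA (50 ng) was labelled with Cy3 and read on one-colour arrays, per the labels. The authors deposited scanner files with the intensity of 15665 spots per array, background-subtracted with Feature Extraction; its version is 10.1.1.1 per the file headers and 10.6 in the submitters' processing notes. They also deposited a table of log2 values for 2191 probes whose normalization, scale and centring are not given in the sources used here (column medians 4.38 to 4.41).

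Control spots and spots marked as outliers were left out. Each probe's mean processed signal was scaled to its array's 75th percentile (558 probes detected on every array), given a floor of 0.607% of that percentile, which neither probe reached, and log2-transformed. Detection meant that over 50% of spots lay well above background, and a probe detected on both arrays of any group was tested. Differences were tested with limma 3.58.1 in R 4.3.3, fitting group alone to 15 arrays, with 7 residual degrees of freedom and an adjusted p threshold of 0.05. The fit was tested on simulated data. Alternatives were other scalings, floors and spot summaries, normexp on median spot signals, no filter, the deposited log2 table, slide as a block and leaving out each array. Arrays of a group are numbered in the order of deposition, which pairs nothing. The probes, comparisons and alternatives were chosen with earlier results of these data known. Comparisons with the 65 h or day 7 arrays, which chose the probes, carry no test. Lists of named microRNAs were not used because the probes have no names here. Other probes named are the 2 with the highest and the 2 with the lowest correlation with the mean of the pair. The number of arrays limits the precision.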

Additional observations from a re-analysis of the deposited data

How the results depend on the processing

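Of 30 alternatives, 4 were added after seeing the data: each pairs a scaling with leaving out the first 42 h array. Day 7 minus 65 h stayed negative in every alternative that keeps the day 7 array. Values below are log2 differences, UCSF033_000357 before UCSF033_000358. The percentile over all probes gave -0.62 and -0.81 at 42 h, 1.90 and 1.85 at 65 h, and -0.65 and -1.04 at day 7 against naive. Without the first 42 h array as well it gave 1.70 at 24 h for UCSF033_000357, now passing, where 70 of 882 probes passed. It also gave 1.55 at 42 h for UCSF033_000358, no longer passing. Quantile normalization gave -0.33 and -0.48 at 42 h. Without that array it gave 1.87 at 24 h and -1.55 for restimulated against 24 h, both for UCSF033_000357 and passing. There 85 and 79 of 882 probes passed. No scaling gave 1.17 and 0.98 at 42 h (0.40 and 0.17 without that array), none passing, -0.39 and -0.35 for restimulated, 1.15 and 1.10 for 65 h and -1.57 and -1.96 for day 7, each against naive.

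Normexp gave 2.19 at 65 h (UCSF033_000357), 0.42 and 0.27 for day 7 against naive, -1.76 and -1.88 for day 7 against 65 h, and 0.46 and 0.66 for restimulated against day 7. Its offset of 50 is as large as the day 7 signals. Under it, day 7 differed less from 65 h and from restimulated cells than with the scaling used above. Day 7 against naive changed sign. The authors' value table gave 1.59 at 24 h and -1.54 for restimulated against 24 h (UCSF033_000357, both passing), 1.75 and 1.62 at 65 h, -0.57 for day 7 against naive, -2.32 and -2.53 for day 7 against 65 h, and 0.62 for restimulated against day 7. Without its column for the first 42 h array UCSF033_000358 lost the call at 42 h (1.44). The slide as a block with no first 42 h array gave 1.89 and 1.86 at 24 h and -1.11 for restimulated against 24 h (UCSF033_000357), all passing. In these comparisons 248 and 210 of 882 probes passed. The labels give no replicate numbers, so arrays could be paired by slide but not by replicate. The slide as a block with all 15 arrays changed no call.

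Leaving out 1 array at a time, where a lone remaining array takes its spread from the other groups, gave 1.70 to 2.04 and 1.67 to 2.03 at 24 h, 1.91 to 2.45 and 1.76 to 2.22 at 42 h, and 0.69 to 1.32 for restimulated against day 7 (UCSF033_000357). Both floors, the median over spots and the filter changed no call. For the changes named here the cause was not tested.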
